A study of Mus musculus with 12 samples.

Results

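The 10 genes described here encode steps of glucose breakdown and were measured in mouse L929 fibroblasts, an established connective tissue line, in every library of a study of nucleic acid and second messenger stimulation. They were the glucose transporter gene Slc2a1, the glycolytic enzyme genes Hk2, Pfkp, Aldoa, Aldoc, Pgk1, Eno1, Eno2 and Ldha, and the pyruvate dehydrogenase kinase gene Pdk1. These 10 of the 54532 genes listed per library were taken by Ensembl identifier and symbol, and all 10 passed the filter on low counts, as did 16840 genes in all. They were picked after Eno2 had been seen to be low in the G3-YSD and HSV libraries, so their values in those labels against mock are given as a description and support nothing by themselves. More than 1 Ensembl gene carries the symbol Aldoa, and the one with more counts, 222036 over all libraries against 1123, was used.

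The series held 12 RNA-seq libraries under 6 labels with 2 libraries each, called library 1 and library 2 after the digit that ends each title. The labels were HT-DNA, hpRNA, G3-YSD and HSV, each described as a transfection, cGAMP, described as a stimulation, and mock, described as having had no treatment. Whether mock cells received the transfection reagent is not stated. RNA was taken 6 hours after transfection, and all 6 labels name L929 as the line, although the source name of HT-DNA, hpRNA and mock says only that it is a fibroblast line of the mouse. The sample records of mock, HT-DNA and hpRNA are numbered in one consecutive set, and the remaining labels, HSV, G3-YSD and cGAMP, in a later one. Setting mock against a label of the later set therefore spans both sets, as does cGAMP against HT-DNA. Whether handling differed between the sets was not tested. cGAMP is the second messenger that the DNA sensor cGAS makes. For HSV the digits 1 and 2 could also name virus types, which the labels do not settle. The labels say that transfections were made in duplicate and no more, so the spread between the 2 libraries of a label may be technical in part. Total counts were 12650790 to 18912400 per library, and the lowest count of any of the 10 genes in any library was 147, for Eno2 in HSV library 2.

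The libraries did not group by label. By the median squared difference in counts over its counting expectation, all 12 libraries had their nearest neighbour under another label but with the same number, at 1.41 to 2.04, whereas the other library of its own label stood at 3.52 to 82.6. The closest pairs were HT-DNA with cGAMP, hpRNA with mock, and G3-YSD with HSV, separately for number 1 and number 2. Libraries 1 of G3-YSD and HSV also held counts for 26496 and 26241 genes and libraries 2 of these labels for 23997 and 23909, against 21635 to 22550 in the other 8. The mitochondrial share of counts was 3.64% and 3.53% in libraries 2 of G3-YSD and HSV, against 2.03% to 2.52% in the other 10. For this reason each gene is given library by library before any mean over a label, and a label's mean for G3-YSD or HSV joins libraries that differ widely.

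Glycolysis splits glucose into pyruvate and yields ATP in the cytosol. Ldha turns pyruvate into lactate, while Pdk1 phosphorylates pyruvate dehydrogenase and so keeps pyruvate out of mitochondria. Most of these genes are known targets of the hypoxia-inducible factor HIF, whose alpha subunit is hydroxylated by the Egln enzymes when oxygen is present, bound by Vhl and degraded, and several are also known targets of Myc. HIF binds a core written ACGTG or GCGTG. Eno2 is best known as the enolase of neurons and Aldoc as the aldolase of brain, but cultured cells of other types express both.

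The stretches upstream of the annotated starts are shown because they hold that core to very different extents. Sequences are from RefSeq on GRCm38.p6, and cover the 250 bases before the start of each gene, read 5′ to 3′ on the gene's strand. Capitals mark ACGTG or GCGTG on either strand, which read CACGT or CACGC where the match lies on the other strand. The window of Eno2 is chr6:124769674-124769923 on the minus strand, that of Slc2a1 chr4:119108495-119108744 on the plus strand, that of Hk2 chr6:82774455-82774704 on the minus strand and that of Pgk1 chrX:106186850-106187099 on the plus strand.
Eno2: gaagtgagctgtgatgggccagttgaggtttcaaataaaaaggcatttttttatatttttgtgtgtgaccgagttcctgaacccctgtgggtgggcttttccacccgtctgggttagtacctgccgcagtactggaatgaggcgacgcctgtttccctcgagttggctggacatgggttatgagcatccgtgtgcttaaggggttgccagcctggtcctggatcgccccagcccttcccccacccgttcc
Slc2a1: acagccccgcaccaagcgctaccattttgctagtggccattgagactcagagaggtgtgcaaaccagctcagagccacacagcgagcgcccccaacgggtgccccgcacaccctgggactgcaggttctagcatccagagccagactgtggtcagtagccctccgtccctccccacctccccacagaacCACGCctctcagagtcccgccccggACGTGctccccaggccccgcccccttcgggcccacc
Hk2: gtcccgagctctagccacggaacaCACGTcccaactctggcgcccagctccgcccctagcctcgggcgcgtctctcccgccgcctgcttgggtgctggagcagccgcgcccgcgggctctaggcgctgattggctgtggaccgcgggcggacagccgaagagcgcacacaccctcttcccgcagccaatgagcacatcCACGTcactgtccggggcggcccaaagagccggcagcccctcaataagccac
Pgk1: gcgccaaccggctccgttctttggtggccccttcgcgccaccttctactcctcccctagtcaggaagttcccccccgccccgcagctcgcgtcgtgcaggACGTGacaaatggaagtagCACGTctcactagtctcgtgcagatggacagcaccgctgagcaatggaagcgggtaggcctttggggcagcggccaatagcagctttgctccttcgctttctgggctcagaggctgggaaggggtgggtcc

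Eno2 had no match in its window, while Slc2a1 had matches beginning 61 and 36 bases before the start, Hk2 at 226 and 52 bases, and Pgk1 at 150 and 131 bases. Of all 32851 annotated starts searched in the same way, 38.6% had at least 1 match. All 10 genes had an annotated start, 17 in all, and 14 of these held a match, so that 9 of the 10 genes had one at some start. Windows of starts of the same gene can overlap, so the count per start takes in some sites more than once. Starts 2 and 3 of Eno1 share the same 2 sites, and starts 2 and 3 of Aldoa share 1. Ldha held the most, with 5 matches at the first of its starts; 4 of these form 2 copies of CACGTG, in which matches on both strands overlap. CACGTG is also the E-box that Myc with Max binds, and 6.02% of all starts held it. Pfkp had 3 matches, Aldoc and Pdk1 1 at the first start, and Aldoa none at the first and the same 1 at each of the others. A match is a description of the letters, and none of these libraries measured binding.

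**Figure D1:**
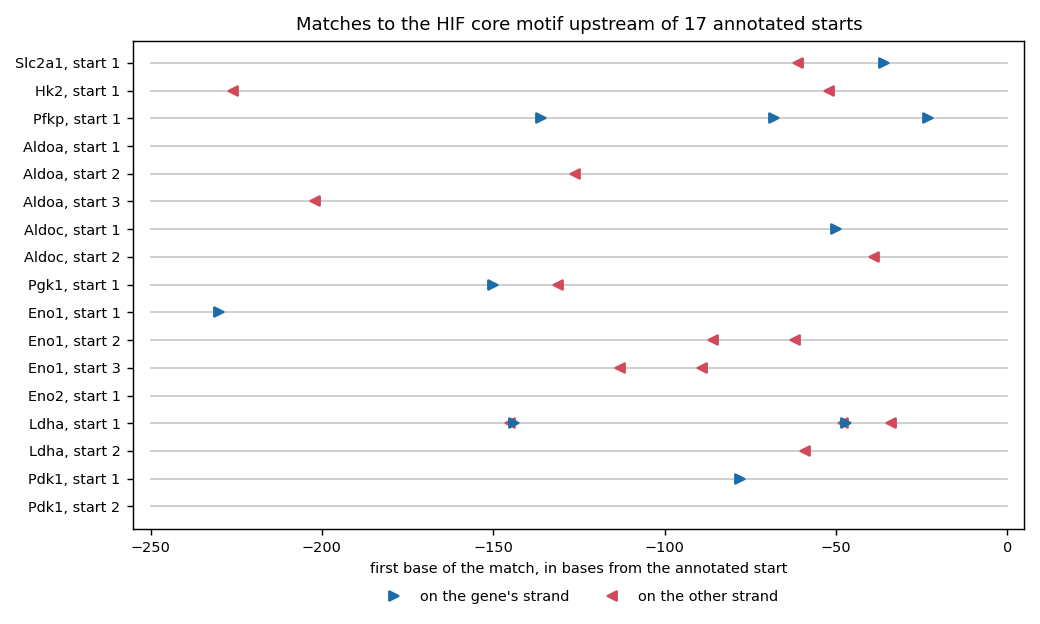
Position of each match to ACGTG or GCGTG in the 250 bases upstream of the 17 annotated starts of the 10 genes; the x axis gives bases from the start, blue arrows the gene's strand and red arrows the other strand. Eno2, the second start of Pdk1 and the first of Aldoa have no match, and the first start of Ldha has 5. Starts 2 and 3 of Aldoa, and likewise of Eno1, show the same sites in overlapping windows.

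Slc2a1 (ENSMUSG00000028645, chr4:119108711-119137983, plus strand of mm10) stands at glucose uptake and encodes the transporter that brings glucose across the plasma membrane of most cultured cells. Levels are CPM, counts scaled to a common library total, on the TMM scale. TMM adjusts those totals on the assumption that most genes do not differ between libraries. Each pair of values gives library 1 and then library 2. Slc2a1 had 287 and 221 CPM with HT-DNA, 186 and 280 CPM with hpRNA, and 293 and 232 CPM with cGAMP, against 177 and 282 CPM for mock. It had 96.4 and 90.04 CPM in G3-YSD and 93.4 and 92.1 CPM in HSV, against the same mock libraries. All 4 G3-YSD and HSV libraries thus lay between 90.04 and 96.4 CPM, below every one of the other 8, whose lowest was mock library 1 at 177 CPM. Averaged over 2 libraries, the level in G3-YSD was 2.46-fold lower than in mock, or -1.30 ± 0.28 on the log2 scale (fold change ± standard error), and in HSV 2.47-fold lower, or -1.31 ± 0.28.

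Among the 8 remaining libraries Slc2a1 was not flat. It was lowest in mock library 1 and hpRNA library 1, at 177 and 186 CPM, and highest in cGAMP library 1 and HT-DNA library 1, at 293 and 287 CPM, a spread of 1.65-fold. Mock library 1 was 0.63 times mock library 2. The other glucose transporter genes on the list of partners, Slc2a3 and Slc2a4, stayed at or under 4.39 CPM, so that Slc2a1 made up 98.7% to 99.1% of transporter counts per kb of exon in G3-YSD and HSV, against 97.7% to 99.5% in the 8 others.

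Hk2 opens the preparatory steps of the pathway. It encodes an inducible hexokinase that traps glucose as its phosphate and docks on mitochondria. Its gene had 234 and 248 CPM with HT-DNA, 152 and 252 CPM with hpRNA, and 237 and 269 CPM with cGAMP, against 142 and 260 CPM for mock. It had 240 and 42.0 CPM in G3-YSD and 243 and 42.1 CPM in HSV, against those same mock libraries. Libraries 1 of G3-YSD and HSV therefore lay in the range of the other labels, while libraries 2 were the lowest of all 12. Between the libraries of one label the difference was 5.72-fold in G3-YSD and 5.77-fold in HSV, and 1.83-fold between the mock libraries in the opposite sense.

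A mean over the label describes Hk2 poorly for that reason. On the log2 scale the fold change was -0.51 ± 0.88 (standard error) in G3-YSD against mock and -0.49 ± 0.88 in HSV against mock. Without library 2 of G3-YSD it was 0.25, and without library 2 of HSV 0.27. Hk1, the constitutive hexokinase, had 97.8 and 175.5 CPM in G3-YSD and 101 and 178 CPM in HSV, against 173 and 201 CPM in mock, so it was lower in libraries 1 than in libraries 2, the reverse of Hk2. The share of Hk2 in hexokinase counts per kb of exon was 76.1% to 76.4% in libraries 1 of G3-YSD and HSV and 24.9% to 25.3% in libraries 2, against 53.8% to 65.8% in the 8 other libraries.

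Pfkp encodes the platelet type of phosphofructokinase, the enzyme of the committed step of glycolysis. It had 475 and 438 CPM with HT-DNA, 406 and 488 CPM with hpRNA, and 481 and 455 CPM with cGAMP, against 404 and 482 CPM for mock. It had 437 and 348 CPM in G3-YSD and 449 and 362 CPM in HSV, so that libraries 2 of these labels were the lowest of all 12 and libraries 1 lay within the mock range. The log2 fold changes against mock were -0.17 in G3-YSD and -0.13 in HSV, each with a standard error of 0.18. Its share of phosphofructokinase counts per kb of exon was 53.6% to 54.6% in libraries 1 of G3-YSD and HSV, 38.1% to 38.8% in libraries 2 and 41.3% to 44.1% in the 8 others; the liver type Pfkl, with 163 and 215 CPM in G3-YSD and 157 and 221 CPM in HSV against 217 and 296 CPM in mock, was lower in libraries 1 than in libraries 2 of each of these labels.

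Aldoa and Aldoc encode aldolases, which cleave the phosphorylated hexose into triose phosphates. Aldoa had 863 and 1319 CPM in G3-YSD and 828 and 1292 CPM in HSV, against 1098 and 1204 CPM in mock. Aldoc had 13.2 and 25.6 CPM in G3-YSD and 16.3 and 25.02 CPM in HSV, against 25.6 and 24.0 CPM in mock. Both genes were thus at their lowest in libraries 1 of G3-YSD and HSV, and in libraries 2 Aldoa exceeded the other 10 libraries while Aldoc matched mock. In the other labels Aldoa stayed between 1086 and 1230 CPM, and Aldoc was lowest in libraries 2 of HT-DNA and cGAMP, at 20.0 and 20.2 CPM. Aldoc made up 1.34% to 2.10% of aldolase counts per kb of exon over all 12 libraries.

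Pgk1, the gene of an ATP-forming step, varied least of the 10 genes, by 1.29-fold from lowest to highest library. It had 855 and 1026 CPM in G3-YSD and 795 and 981 CPM in HSV, against 811 and 936 CPM in mock. The range in the 8 other libraries was 811 to 936 CPM, both ends being mock libraries. The log2 fold changes were 0.11 in G3-YSD and 0.02 in HSV, each with a standard error of 0.15.

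The enolases Eno1 and Eno2 catalyse the same step, and their levels differed in pattern. Eno2 (ENSMUSG00000004267, chr6:124760053-124769673, minus strand of mm10) had 123 and 82.7 CPM with HT-DNA, 90.3 and 114 CPM with hpRNA, and 118 and 102 CPM with cGAMP, against 89.4 and 118 CPM for mock. It had 23.4 and 13.5 CPM in G3-YSD and 18.9 and 12.1 CPM in HSV, against those mock libraries. All 4 of these libraries were below the lowest of the other 8, HT-DNA library 2 at 82.7 CPM, and within each label library 1 was above library 2, by 1.73-fold in G3-YSD and 1.56-fold in HSV. As means over 2 libraries Eno2 was 5.61-fold lower in G3-YSD than in mock, or -2.49 ± 0.35 on the log2 scale (fold change ± standard error), and 6.67-fold lower in HSV at -2.74 with a standard error of 0.36.

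Eno1, the enolase of most tissues, had 1155 and 1910 CPM in G3-YSD and 1076 and 1918 CPM in HSV, against 1423 and 1613 CPM in mock. Libraries 1 of G3-YSD and HSV were the lowest of the 12 and libraries 2 the highest, and the 6 libraries of HT-DNA, hpRNA and cGAMP lay between 1521 and 1644 CPM. The muscle enolase Eno3 had 112 and 171.5 CPM in G3-YSD and 110 and 165 CPM in HSV, against 121 and 125 CPM in mock, the same order as Eno1. Eno2 therefore made up 1.51% to 1.75% of enolase counts per kb of exon in libraries 1 of G3-YSD and HSV and 0.569% to 0.630% in libraries 2, against 4.75% to 6.50% in the other 8. The Eno1 values carry a limit: a processed pseudogene, Gm4735, matched an Eno1 transcript at 99.6% identity over 1302 bases and had 126481 counts against 303260 for Eno1, and a further gene annotated as protein coding, Eno1b, matched at 99.5% over 1736 bases and had 101747 counts. Pseudogenes took 29.0% to 30.7% of the summed counts in every library, and for Eno2 no pseudogene was matched. With pseudogene counts added to Eno1, the share of Eno2 was 0.425% to 1.31% in G3-YSD and HSV and 3.59% to 4.92% in the other 8. Eno1b was left out of the enolase counts in every version.

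**Figure D2:**
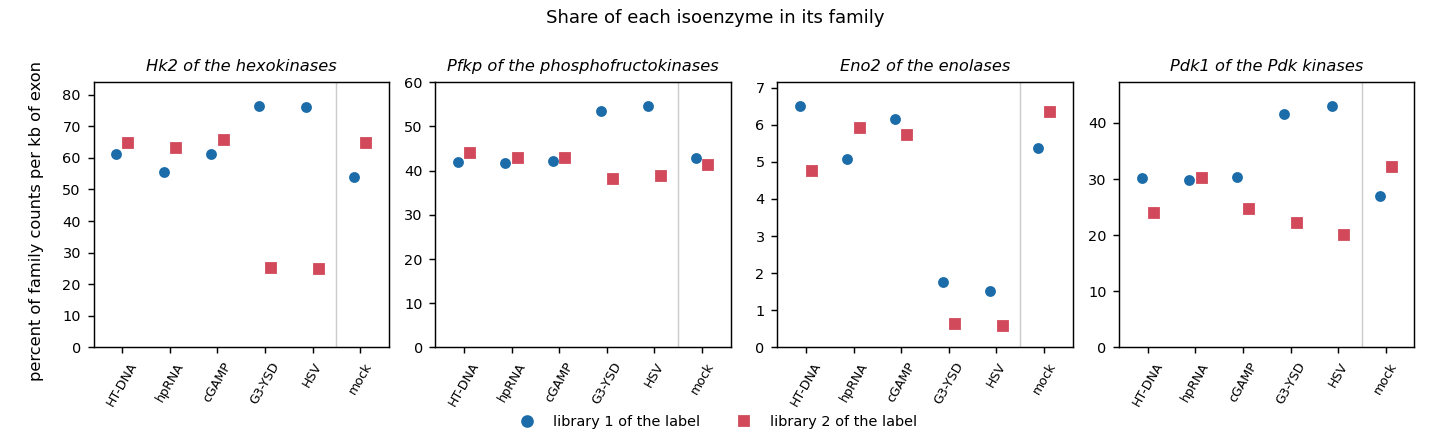
Share of Hk2, Pfkp, Eno2 and Pdk1 in the counts per kb of exon of their enzyme family, in percent, for library 1 (blue circles) and library 2 (red squares) of each label. Eno2 is at 1.75% or less in all 4 G3-YSD and HSV libraries and at 4.75% or more in the other 8, whereas Hk2 is high in libraries 1 and low in libraries 2 of G3-YSD and HSV. Pseudogenes and Eno1b are not counted.

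At the fate of pyruvate, Ldha, the main lactate dehydrogenase subunit of these cells, had 1195 and 1522 CPM in G3-YSD and 1188 and 1543 CPM in HSV, against 1278 and 1610 CPM in mock. Libraries 1 were lower than libraries 2 in G3-YSD, HSV, hpRNA and mock, and higher in HT-DNA, with 1592 and 1492 CPM, and in cGAMP, with 1626 and 1549 CPM. Ldha made up 86.4% to 92.5% of lactate dehydrogenase counts per kb of exon in all 12 libraries. The log2 fold changes were -0.09 in G3-YSD and -0.08 in HSV, each with a standard error of 0.19.

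Pdk1 had 47.7 and 33.0 CPM with HT-DNA, 57.8 and 49.8 CPM with hpRNA, and 50.7 and 34.2 CPM with cGAMP, against 55.1 and 53.0 CPM for mock. It had 83.3 and 51.1 CPM in G3-YSD and 81.0 and 42.3 CPM in HSV, against those mock libraries. Libraries 1 of G3-YSD and HSV were the highest of all 12, and libraries 2 of HT-DNA and cGAMP the lowest. The log2 fold change of 0.31 (standard error 0.365) in G3-YSD became -0.09 without library 1 of G3-YSD, and that of 0.19 in HSV became -0.365 without library 1 of HSV. The other kinases of pyruvate dehydrogenase went separate ways: Pdk4 had 16.95 and 3.998 CPM in G3-YSD and 15.9 and 4.29 CPM in HSV, against 3.64 and 2.56 CPM in mock, while Pdk2 had 4.13 and 16.8 CPM in G3-YSD and 5.89 and 15.5 CPM in HSV, against 21.7 and 10.3 CPM in mock.

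**Figure D3:**
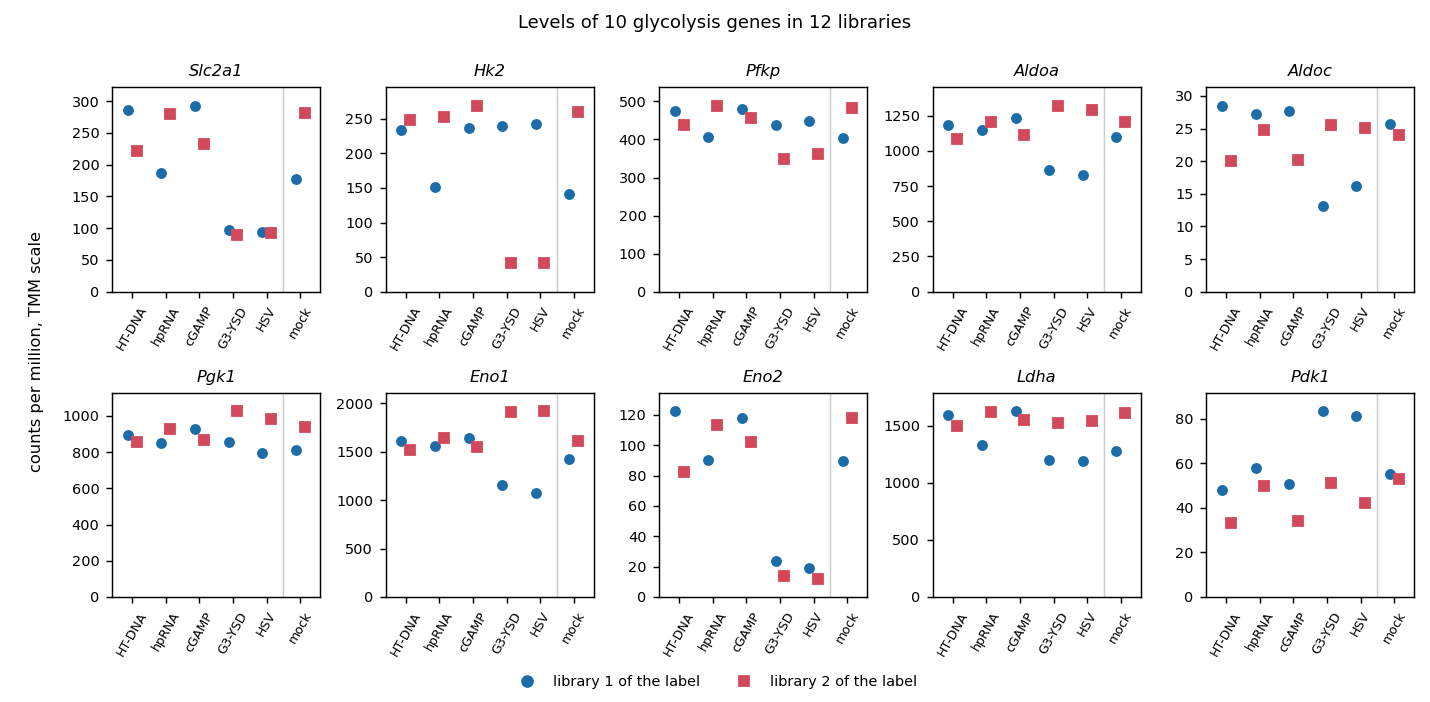
Levels of the 10 genes in CPM on the TMM scale, each axis from 0, for library 1 (blue circles) and library 2 (red squares) of the 5 stimuli and of mock at the right. Eno2 and Slc2a1 are low in all 4 G3-YSD and HSV libraries, Hk2 only in libraries 2 of these labels (42.0 and 42.1 CPM), and Eno1, Aldoa and Aldoc are lower in libraries 1 than in libraries 2 of both.

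Counted over the 10 genes, 2 were called lower and 0 higher in G3-YSD against mock, and likewise 2 lower and 0 higher in HSV against mock, in both cases Eno2 and Slc2a1. A call is a Benjamini-Hochberg adjusted p under 0.05 in edgeR's quasi-likelihood test over all genes; 5.16% of the 16840 genes tested were called in G3-YSD, 1.79% as higher and 3.37% as lower, and 5.2% in HSV, 1.73% as higher and 3.47% as lower. With upper quartile scaling in place of TMM, 364 genes were called higher and 314 lower in G3-YSD, against 302 and 567 under TMM, and 347 higher and 304 lower in HSV, against 291 and 585 under TMM; 1 of the 10 genes was then called in each, Eno2. Nothing is read from these counts, since the genes were chosen on these contrasts. The calls rested on every mock library: without mock library 1 or without mock library 2 no gene at all was called in either comparison, and the log2 fold change of Eno2 was then between -2.69 and -2.28 in G3-YSD and between -2.93 and -2.52 in HSV. Without library 2 of G3-YSD or HSV no member was called either, and without library 1 of G3-YSD or HSV 1 was, Eno2. G3-YSD and HSV were compared with the same mock libraries, so their values are given side by side and not as repeats of each other. Both labels also belong to the later set of sample records and mock to the earlier one. A difference between these sets would thus enter both contrasts, and this was not tested.

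The median log2 fold change of the 10 genes was -0.13 in G3-YSD, against 0.11 over all genes tested, and -0.12 in HSV, against 0.10. With upper quartile scaling the medians over all genes became 0.24 and 0.26 and those of the 10 genes 0.005 and 0.03, so that the sign of the median of the 10 depended on the scaling, though not its place below all genes. Whether fewer transcripts per cell or fewer cells with a transcript lay behind a lower level cannot be told apart in bulk RNA.

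The contrasts that played no part in choosing the genes gave no call. In HT-DNA against mock 0 of the 10 were called, where 0.0% of all genes were, and their log2 fold changes ran from -0.42 for Pdk1 to 0.27 for Hk2, with standard errors of 0.15 to 0.88. The smallest unadjusted p of the 10 was 0.282 by edgeR's quasi-likelihood test. In cGAMP against mock, again with 0.0% of all genes called, they ran from -0.35 for Pdk1 to 0.33 for Hk2, with a smallest unadjusted p of 0.367. In hpRNA against mock, also at 0.0%, the log2 fold changes ran from -0.03 for Eno2 to 0.075 for Eno1, with a smallest unadjusted p of 0.803.

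These zeros belong to a test with 2 libraries per label and no term for the library number. It estimated each gene's spread over all 12 libraries. The standard errors and p values above thus also take in differences within the G3-YSD and HSV labels. For Hk2 these were 5.72-fold and 5.77-fold, and its standard error was 0.88 in HT-DNA, hpRNA and cGAMP against mock. With the number as a block in the fit of the 8 libraries of HT-DNA, hpRNA, cGAMP and mock, 14 genes were called in HT-DNA, 0 in hpRNA and 23 in cGAMP, and in the fit of the 4 libraries compared 6, 182 and 6, none of them among the 10. Without the block, edgeR's test on all 12 libraries had 62, 58 and 99 genes at an unadjusted p under 0.05 in HT-DNA, hpRNA and cGAMP against mock. None of them were among the 10, and DESeq2 called 1, 1 and 0 genes at its adjusted threshold. With the block, the unadjusted threshold took in 103, 75 and 177 genes in the fit of all 12 libraries, with none of the 10. Fits of 4 libraries took in 639, 1342 and 833 genes with the block, with 1, 1 and 2 of the 10. Without it they took in 155, 125 and 245, none of them among the 10. In the blocked fit of 8 libraries the threshold took in 1231, 355 and 1666 genes, with 1, 0 and 1 of the 10. Without the block the fit of 8 libraries had 288, 238 and 483, none of them among the 10. Both the block and the libraries fitted thus changed these counts. The fits of 4 and of 8 libraries without the block called 0 genes. Pdk1 was the only one of the 10 with both HT-DNA libraries below both mock libraries, at 47.7 and 33.0 CPM against 55.1 and 53.0 CPM, and likewise the only one in cGAMP; over all genes 14.0% lay wholly below mock in HT-DNA and 15.1% in cGAMP. None of the 10 lay wholly above mock there, where 13.8% and 14.9% of all genes did, and in hpRNA none lay wholly below or above, where 10.3% and 10.5% did. In G3-YSD and HSV, Eno2 and Slc2a1 lay wholly below mock, where 22.7% and 22.8% of all genes did, and none of the 10 lay wholly above, where 24.4% and 24.7% did.

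Stimuli were also set against each other directly. In HSV against G3-YSD 0 of the 10 genes were called, where 0.0% of all genes were, with log2 fold changes between -0.25 for Eno2 and 0.09 for Aldoc and a smallest unadjusted p of 0.482 by edgeR's quasi-likelihood test. In cGAMP against HT-DNA, also with 0.0% of genes called, the range was -0.02 for Aldoc to 0.10 for Eno2, with a smallest unadjusted p of 0.763. At an unadjusted p under 0.05 these comparisons had 33 and 44 genes in all, none of the 10, and DESeq2 called 1 gene in each. With the library number as a block in the fit of the 4 libraries compared, 13 genes were called in HSV against G3-YSD and 21 in cGAMP against HT-DNA, none of the 10. At an unadjusted p under 0.05 in edgeR's test, these blocked fits had 855 and 1005 genes, with 1 and 0 of the 10. Fits of the same 4 libraries without the block had 1 and 194, none of them among the 10. None of the 10 had both HSV libraries below or above both G3-YSD libraries, where 3.5% and 3.49% of all genes did, or both cGAMP libraries below or above both HT-DNA libraries, where 11.8% and 13.5% did. Leaving out library 1 of G3-YSD turned the Eno2 difference of HSV against G3-YSD to 0.21.

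**Figure D4:**
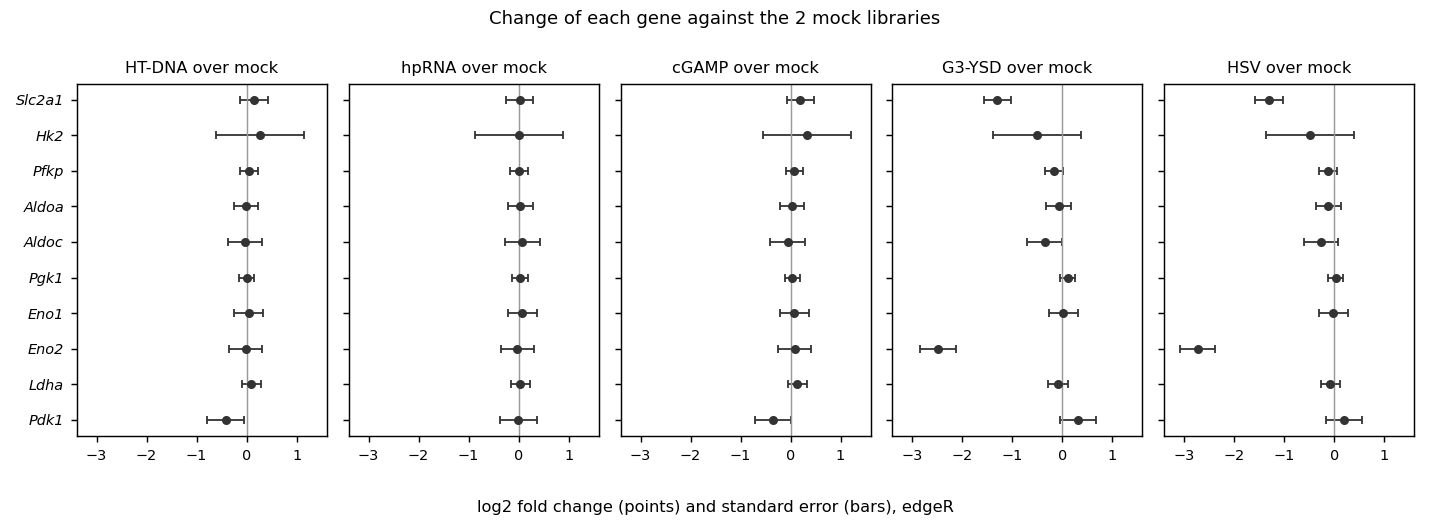
Log2 fold change (points) and standard error (bars) of each gene for the 5 stimuli over mock, from the fit of all 12 libraries. Eno2 and Slc2a1 lie well below 0 in G3-YSD and HSV, and Hk2 has the widest bars, 0.88 on each side.

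The order of levels within the pathway was compared per length. Over the 8 libraries of HT-DNA, hpRNA, cGAMP and mock, the mean level per kb of exon was 457 CPM per kb for Ldha, 398 for Aldoa, 394 for Pgk1 and 292 for Eno1, then 69.8 for Slc2a1, 37.6 for Hk2, 33.9 for Pfkp, 22.2 for Eno2, 7.59 for Aldoc and 6.13 for Pdk1. Per kb of the longest transcript, Pfkp stood at 109 and above Slc2a1 at 75.1, because its annotated exons sum to 13401 bases and its longest transcript to 4145. Hk2 and Pfkp therefore have no settled order, while Aldoa stood above Pgk1 under both lengths, at 398 against 394 CPM per kb of exon and 748 against 484 per kb of the longest transcript. Eno1 had no settled place either. It was below Aldoa and Pgk1 per kb of exon, but above both per kb of the longest transcript, at 774.5. Aldoc was above Pdk1 per kb of exon and below it per kb of the longest transcript, at 8.88 against 9.19. Eno2 kept its place below Hk2 under both lengths.

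Genes whose levels followed Eno2 most closely were found by Pearson correlation of log2(CPM + 1) over the 12 libraries, among 9661 protein-coding genes with a mean of at least 5 CPM. The 5 closest were Capn10, Kat14 and Slc27a1 at 0.994 and Fpgs and Mcf2l at 0.993. Over the 8 libraries without G3-YSD and HSV these genes had correlations of 0.677 to 0.919, and none of the 5 was among the 5 closest there, which were Vdac1, Vegfa, Arhgdib, Ddit4 and Cars at 0.947 to 0.983. Of these, Vegfa and Ddit4, which hypoxia is known to induce, also had 0.985 and 0.966 over all 12. The likeness over 12 libraries is a description carried largely by the gap between the 4 G3-YSD and HSV libraries and the rest, and the libraries are not independent, since each lies closest to one with the same number.

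Among the 10 genes themselves, Slc2a1 had the highest correlation with Eno2 over 12 libraries, 0.966 at rank 274 of 9661. The G3-YSD and HSV libraries, in which both genes are low, contribute to this value. Pfkp had 0.717 and Hk2 0.688, Aldoc 0.407, Ldha 0.402, Aldoa 0.217, Eno1 0.079, Pgk1 -0.237 and Pdk1 -0.354. Over the 8 libraries without G3-YSD and HSV the order was another one, with Slc2a1 at 0.881, Aldoa at 0.875, Pfkp at 0.856, Pgk1 at 0.834, Eno1 at 0.798, Ldha at 0.776, Hk2 at 0.524, Aldoc at 0.453 and Pdk1 at 0.288. Slc2a1 thus did not stand apart from Aldoa, Pfkp and Pgk1 there, and the negative values of Pgk1 and Pdk1 became positive.

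The other steps of glycolysis showed the split between libraries but no call. Of Gpi1, Tpi1, Gapdh, Pgam1 and Pkm, 0 of 5 were called in G3-YSD or HSV against mock. Pkm, the pyruvate kinase of proliferating cells, had 1533 and 2690 CPM in G3-YSD and 1513 and 2658 CPM in HSV, against 2016 and 2190 CPM in mock, the pattern of Eno1 and Aldoa. Gpi1, Tpi1 and Pgam1 were likewise lower in libraries 1 than in libraries 2 of G3-YSD and HSV. Of the isoenzyme partners 0 of 10 tested were called. With the library number as a block in the fit of all 12 libraries, Slc2a4 was called lower in both comparisons.

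Among 12 tested genes of glycolytic regulation and lactate export, 1 was called higher in both comparisons, Pgam2, the muscle phosphoglycerate mutase, at a low level: 12.8 and 9.92 CPM in G3-YSD and 10.2 and 11.5 CPM in HSV, against 5.12 and 3.97 CPM in mock. Its log2 fold changes were 1.32 and 1.25, each with a standard error of 0.23. The other 11 were not called, although 10 of the 12 lay below the median of all genes in each comparison, with a list median of -0.17 in G3-YSD and -0.31 in HSV against 0.11 and 0.10 over all genes. DESeq2 called Bpgm, Pfkfb1 and Pfkfb3 lower in G3-YSD and Bpgm lower in HSV. Bpgm, which makes 2,3-bisphosphoglycerate, had 8.03 and 5.23 CPM in G3-YSD and 6.74 and 5.45 CPM in HSV, against 12.2 and 11.4 CPM in mock. Slc16a3, a lactate exporter, had 3.48 and 2.61 CPM in G3-YSD and 3.13 and 2.73 CPM in HSV, against 5.86 and 5.98 CPM in mock, with log2 fold changes of -0.95 ± 0.38 and -1.01 ± 0.38 (standard error). The second lactate carrier, Slc16a1, had 286 and 217 CPM in G3-YSD and 284 and 213 CPM in HSV, against 235 and 309 CPM in mock, and was not called. Of 10 genes for pyruvate entry into mitochondria, 1 was called lower in G3-YSD, the pyruvate dehydrogenase phosphatase gene Pdp2, with 12.3 and 7.07 CPM against 22.6 and 24.0 CPM in mock, and 0 in HSV. In HSV Pdp2 had 13.1 and 9.33 CPM, and its log2 fold changes were -1.26 ± 0.27 in G3-YSD and -1.05 ± 0.27 in HSV (standard error); DESeq2, and edgeR with no filter on low counts, called it lower in HSV too. The second such phosphatase, Pdp1, had 33.7 and 2.69 CPM in G3-YSD and 32.3 and 2.64 CPM in HSV, against 19.1 and 13.1 CPM in mock, a 12.5-fold difference between the G3-YSD libraries. In the list for pyruvate entry, DESeq2 also called Pdhb higher in both comparisons.

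Known HIF targets outside the enzymes of the pathway were tested as a list of 23 genes, among them Pfkfb3, a regulator of phosphofructokinase that is also counted under glycolytic regulation, and in each of G3-YSD and HSV against mock 6 were called lower and 0 higher. They were Adm, Ankrd37, Vegfa, Bnip3, Ddit4 and Mxi1 in both comparisons, which share the mock libraries. The list's median log2 fold change was -0.65 in G3-YSD and -0.78 in HSV, and 21 of the 23 genes lay below the median of all genes in each. Without either mock library, or without library 2 of the stimulus, 0 of the 23 were called; without library 1 of G3-YSD 4 were, Adm, Bnip3, Pfkfb3 and Vegfa, and without library 1 of HSV 4 were, Adm, Ankrd37, Bnip3 and Vegfa. With no filter on low counts 8 of 25 genes were called lower in G3-YSD and 10 of 25 in HSV. The list was chosen with earlier results of these data known.

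Library by library, Vegfa, the vascular growth factor, had 119 and 115 CPM in G3-YSD and 119 and 112.5 CPM in HSV, against 309 and 420.5 CPM in mock. Bnip3, which marks mitochondria for removal, had 32.1 and 27.8 CPM in G3-YSD and 25.2 and 22.9 CPM in HSV, against 88.0 and 97.4 CPM in mock. Adm, the adrenomedullin gene, had 13.3 and 10.4 CPM in G3-YSD and 12.3 and 10.49 CPM in HSV, against 39.5 and 78.4 CPM in mock. In these 3 genes, as in Eno2 and Slc2a1, both libraries of G3-YSD and HSV were below all 8 others. Their log2 fold changes in G3-YSD and HSV were -1.645 and -1.655 for Vegfa, -1.63 and -1.95 for Bnip3 and -2.31 and -2.37 for Adm, with standard errors of 0.24 to 0.37.

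Not every HIF target followed. Ndrg1 had 327 and 102 CPM in G3-YSD and 313 and 97.3 CPM in HSV, against 201.5 and 235 CPM in mock, so libraries 1 were above mock and libraries 2 below, as with Pdk1. P4ha1, a collagen prolyl hydroxylase, had 99.8 and 189.5 CPM in G3-YSD and 95.4 and 188 CPM in HSV, against 139 and 165 CPM in mock, the order of Eno1. Both genes were picked after their values were seen, to show the range within the list.

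Of 9 tested genes of the HIF pathway itself, 1 was called lower in both comparisons, the prolyl hydroxylase gene Egln2, with 27.2 and 22.8 CPM in G3-YSD and 28.6 and 20.1 CPM in HSV, against 58.95 and 52.7 CPM in mock. Egln3, itself a HIF target, had 56.9 and 145 CPM in G3-YSD and 50.7 and 147 CPM in HSV, against 478 and 506 CPM in mock; it was not called by edgeR's test on the filtered genes, but was by DESeq2 and with no filter on low counts. Its lowest values among the other 8 libraries were in libraries 2 of HT-DNA and cGAMP, at 307.5 and 329 CPM, where Pdk1 and Aldoc were also at their lowest among these 8. Hif1a had 167 and 260 CPM in G3-YSD and 160 and 250 CPM in HSV, against 209 and 230.5 CPM in mock. Vhl had 36.4 and 13.1 CPM in G3-YSD and 34.9 and 13.9 CPM in HSV, against 38.0 and 48.5 CPM in mock. It was below the 8 other libraries, whose lowest was 37.9 CPM, in all 4, by little in libraries 1 and by far more in libraries 2.

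Of 9 tested genes for Myc and other regulators of glycolytic genes, 1 was called lower in both comparisons, Esrra, a nuclear receptor of energy metabolism, with 39.0 and 33.2 CPM in G3-YSD and 42.7 and 36.25 CPM in HSV, against 73.7 and 75.3 CPM in mock. Myc had 221 and 1914 CPM in G3-YSD and 204.5 and 1892 CPM in HSV, against 224 and 281 CPM in mock. Libraries 2 of G3-YSD and HSV were thus 8.65-fold and 9.26-fold above libraries 1. Myc was called higher in both comparisons with no filter on low counts, and otherwise not. Pgam2, Pdp2, Egln2 and Esrra were not called without either mock library or without library 2 of the stimulus; Pgam2 was also not called in G3-YSD without library 1 of G3-YSD, or in HSV with no filter. No list gene was called in HT-DNA, hpRNA or cGAMP against mock.

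**Figure D5:**
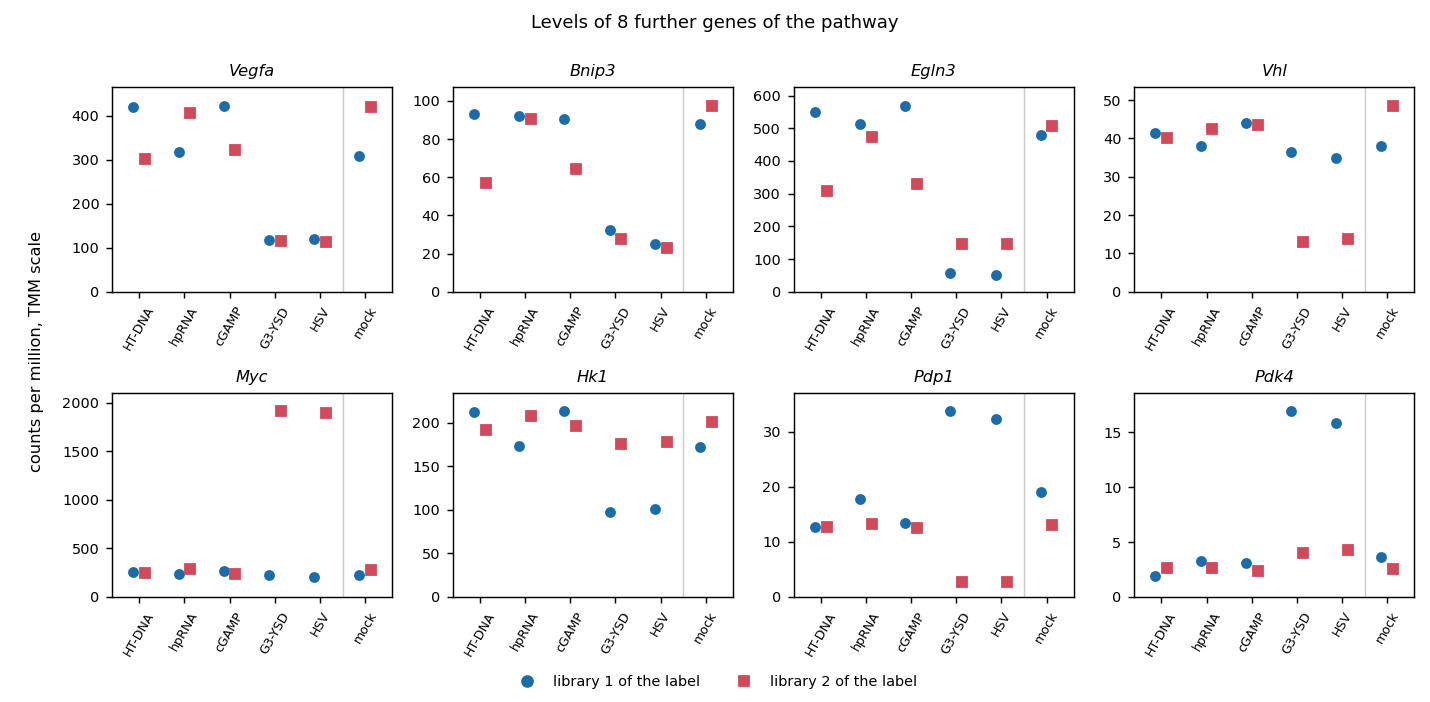
Levels of 8 further genes in CPM on the TMM scale, each axis from 0, for library 1 (blue circles) and library 2 (red squares) of the 5 stimuli and of mock at the right. Vegfa, Bnip3 and Egln3 are low in all 4 G3-YSD and HSV libraries, Myc is high (1914 and 1892 CPM) and Vhl and Pdp1 are lowest in libraries 2 of these labels, and Hk1 is low and Pdk4 high in libraries 1.

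The label of the cells was checked against markers. The 10 fibroblast genes on the list summed to 3082 to 5009 CPM in G3-YSD and 2896 to 4921 CPM in HSV, against 3470 to 3597 CPM in mock, with Thy1 at or under 0.488 CPM throughout. Neuron markers, of interest because of Eno2, summed to at most 3.897 CPM in any library, and Snap25 and Stmn2 had 0 counts in all 12. Blood cell markers summed to 59.1 to 74.6 CPM in G3-YSD and 67.2 to 76.05 CPM in HSV, against 81.2 to 83.7 CPM in mock. Muscle markers summed to 18.9 to 29.9 CPM in G3-YSD and 20.8 to 26.75 CPM in HSV, against 20.6 to 25.2 CPM in mock. Epithelial markers reached 4.29 CPM in HSV and astrocyte markers 3.08 CPM in G3-YSD. Endothelial markers summed to 3.08 to 11.1 CPM in G3-YSD and 3.80 to 8.77 CPM in HSV, against 0.24 to 0.51 CPM in mock, carried by Kdr at 10.51 and 8.15 CPM in libraries 1; their part in the results was not tested.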

How the data were processed

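Per the labels' protocols, polyA-selected RNA of L929 cells was sequenced in pairs of 150 bases. The submitters' processing notes name HISAT2, HTSeq and mm10, with no versions; the annotation release and strand setting were not given in the sources used here. The authors deposited raw counts per Ensembl gene, 1 table per library, used as deposited. Of 54532 genes, 54495 matched GENCODE M21 (same assembly).

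In R 4.3.3, edgeR 4.0.16 filtered low counts (16840 genes kept), scaled by TMM and fitted 1 term per label to all 12 libraries (6 residual degrees of freedom, biological coefficient of variation 0.397), with Benjamini-Hochberg adjustment and calls under 0.05. The fit was tested on simulated data. Errors of fold changes are standard errors. Pseudogenes were matched by transcript alignment (at least 90% identity over 150 bases). Shares use counts per kb of annotated exon. DESeq2 1.42.0 was an alternative. Members, lists and tests were chosen with earlier results of these data known. Genes named by rule were all members, partner isoenzymes and remaining steps, up to 4 called genes per list, and the 5 genes most like Eno2. Further genes were named outside this rule, with earlier results known. Among them were Pdp1, Myc, Vhl, Hif1a, Egln3, Slc16a1, Slc16a3, Bpgm, Ddit4, Mxi1, Ndrg1, P4ha1, Mdh2, Sdha and G6pdx. The labels do not say what a replicate number shares; same-numbered libraries deviated together within HT-DNA, hpRNA, cGAMP and mock and within G3-YSD and HSV, but oppositely across these sets. The block was an alternative.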

Additional observations from a re-analysis of the deposited data

How the results depend on the processing

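Leaving out 1 library, the members called were 0 to 1 and the genes called 0 to 652 in G3-YSD against mock, and 0 to 1 and 0 to 682 in HSV against mock; 77 genes were called without G3-YSD library 2, 130 without HSV library 2 and 0 without either mock library. With only the 4 libraries compared, 0 members and 0 genes were called in either comparison. DESeq2 called 2208 genes in G3-YSD and 2272 in HSV, and with no filter on low counts 1894 and 1892 were called, against 869 and 876. Upper quartile scaling left 1 member called in each, Eno2. DESeq2 called 1 gene in each of HT-DNA and hpRNA against mock, HSV against G3-YSD and cGAMP against HT-DNA, and with no filter 1 gene was called in HSV against G3-YSD.

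The replicate number as a block changed the counts as follows. In the fit of the 4 libraries compared it gave 6 genes in HT-DNA against mock, 182 in hpRNA, 6 in cGAMP, 0 genes and 0 members in G3-YSD and in HSV, 13 in HSV against G3-YSD and 21 in cGAMP against HT-DNA; in the fit of the 8 libraries without G3-YSD and HSV it gave 14 in HT-DNA and 23 in cGAMP; and in the fit of all 12 libraries 1211 in G3-YSD and 1214 in HSV. Deviations of libraries with the same number correlated at 0.51 to 0.842 among HT-DNA, hpRNA, cGAMP and mock and at 0.965 between G3-YSD and HSV, but at -0.449 to -0.403 across these sets, so the number goes with shared structure within each set and not over all 12 libraries. The labels do not say what it stands for.

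Left-out libraries gave these ranges of log2 fold change, each crossing 0: Hk2 -0.10 to 0.78 in HT-DNA against mock, -0.043 to 0.84 in cGAMP, -2.27 to 0.25 in G3-YSD and -2.26 to 0.27 in HSV; Pdk1 -0.092 to 0.61 in G3-YSD and -0.365 to 0.57 in HSV; Eno2 -0.61 to 0.21 in HSV against G3-YSD and -0.15 to 0.40 in cGAMP against HT-DNA. Of 48 called values of members under other settings 24 lost their call and 0 changed sign; of 872 uncalled values 122 changed sign, none larger than 0.507 in the main fit, and 0 became called. The causes were not tested.

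The mean share over 12 libraries was 43.8% for Pfkp, 62.8% from plain counts and 59.7% per kb of the longest transcript; 90.2% for Ldha, then 95.1% and 93.3%; 29.6% for Pdk1 and 53.4% from plain counts; and 1.78% for Aldoc and 1.12% per kb of the longest transcript. In the 8 libraries without G3-YSD and HSV, the share of Hk2 was 53.8% to 65.8% per kb of exon. It was 45.0% to 57.6% there from plain counts and 38.8% to 51.2% per kb of the longest transcript. Whether Hk2 led the hexokinases there thus depended on the length used. Per kb of the longest transcript, Eno2 had 3.45% to 4.75% in these 8 and at most 1.29% in G3-YSD and HSV. The length by transcript was chosen after seeing the data.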

Other observations

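The routes that take carbon from glycolysis showed the same split between libraries without any call in the main fit. DESeq2 called the pentose phosphate gene Rpia lower in G3-YSD. Of 16 citric acid cycle genes, 0 were called in G3-YSD or HSV against mock. Their median fold change on the log2 scale was 0.22 and 0.19, against 0.11 and 0.10 over all genes tested. Mdh2, the mitochondrial malate dehydrogenase, had 464 and 781 CPM in G3-YSD and 424 and 765 CPM in HSV, against 496 and 527 CPM in mock. Sdha, a succinate dehydrogenase subunit, had 296 and 483 CPM in G3-YSD and 315 and 492 CPM in HSV, against 343 and 317 CPM in mock. In both genes libraries 2 of G3-YSD and HSV were the highest of all 12. Of 7 pentose phosphate genes 0 were called; G6pdx, which commits glucose to that pathway, had 67.3 and 148.5 CPM in G3-YSD and 60.6 and 140 CPM in HSV, against 123 and 120.5 CPM in mock. Mdh2, Sdha and G6pdx were picked by place in the pathway, after values were seen.

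Gapdh, often used as a constant reference, had few counts of its own. It stood at 62.5 to 85.2 CPM in the 12 libraries, while pseudogenes matched to its transcript held 91.0% to 93.5% of the counts of gene and pseudogenes together. Of 179 matched pseudogenes 145 had counts. Summed with them, Gapdh reached 720 to 1134 CPM. How the counting divided such reads is not given in the sources used here.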
